A study of Mus musculus with 45 samples.

Results

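The genes described here encode the proteasome, and they were all genes of the deposited count table whose mouse symbol is Psma, Psmb, Psmc, Psmd or Psme followed directly by a number. The rule found 43 genes among 19966 and used no measured value. Their RNA was followed in mouse liver after partial hepatectomy (PHx), surgery that takes away lobes of the organ and sets off growth of those left behind. All animals were C57Bl/6 mice of 8 to 12 weeks of age, with surgery done in the morning, and the 2 genotypes were Uhrf1hepKO (KO), by its name a hepatocyte knockout of Uhrf1, and wild type (WT). UHRF1 is the protein that brings the maintenance DNA methyltransferase to newly replicated DNA. The sources used here give no allele, Cre driver or control allele, and liver cells other than hepatocytes would keep the gene by the construct's name. Each genotype was sampled at baseline and at 7 times after surgery, namely 24, 30, 40, 48 and 96 h, 7 days and 4 weeks, which gives 16 groups. There were 3 libraries in 13 of them and 2 in the KO group of 7 days and the WT groups of 30 and 48 h.

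The proteasome is the cytosolic and nuclear protease that degrades proteins tagged with ubiquitin. Its barrel, the 20S core, stacks rings of alpha subunits (Psma genes) on rings of beta subunits (Psmb genes), of which Psmb5, Psmb6 and Psmb7 encode the catalytic ones. The 19S cap binds and unfolds substrates with a ring of ATPases (Psmc genes) and with non-ATPase subunits (most Psmd genes) such as PSMD14, which removes ubiquitin from the substrate. In cells exposed to interferon, and constantly in many lymphoid cells, the catalytic subunits encoded by Psmb8, Psmb9 and Psmb10 take the places of PSMB5, PSMB6 and PSMB7 to form the immunoproteasome, and the activator PA28 made of PSME1 and PSME2 caps the core. NFE2L1 (NRF1) is the transcription factor best known for raising the constitutive genes together when proteasome capacity is short.

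Libraries held 12.85 to 23.13 M (mega) counts. Uhrf1 stood at 66.4 ± 39.6 CPM (counts per M counts, with TMM scaling; mean ± SD, n = 3) in WT and 5.8 ± 2.81 CPM (n = 3) in KO at 40 h. At 30 h it was at 32.3 ± 6 CPM (n = 2) in WT and 12.9 ± 3.49 CPM (n = 3) in KO. By label it was at 0.408 ± 0.339 CPM in WT and 1.37 ± 0.962 CPM in KO at 96 h (n = 3 each). At baseline it was below 1 CPM in both genotypes. Hepatocyte markers summed to 96900 to 113000 CPM in WT and 91300 to 101000 CPM in KO baseline livers. Arntl and Dbp, genes of the circadian clock and its output, differed within and between groups. At baseline Arntl ran from 1.68 to 24.4 CPM in WT and 1.97 to 23.5 CPM in KO. Dbp ran from 2.14 to 63.7 CPM and 5.5 to 84.2 CPM. Arntl means in WT were 25.3 CPM at 24 h, 1.73 CPM at 30 h and 24.5 CPM at 48 h. The part of time of day in the member values was not tested. The 3 libraries labelled WT at 96 h stood apart. Bglap3, a gene that was at 0.229 to 1.15 CPM in the means of the other WT groups and at 5.83 to 18.6 CPM in the KO groups, was at 17.2 ± 9.91 CPM (n = 3) in them. Results at 96 h are therefore given by label, and counts for the other times were also computed without the 6 libraries of 96 h. Nothing in the labels ties libraries to separate animals, so the p-values reflect the spread among these samples alone, and that spread may be technical. In the sample descriptions, the names of the baseline libraries share their start with those of 40 h, and whether these came from the same animals is not stated.

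Of the 43 genes, 42 passed the filter on low counts and were tested. Psmb11, the thymus-restricted catalytic subunit, had 0 to 2 counts per library and was not tested. Psma8, the testis-restricted alpha subunit, was tested but had 3 to 34 counts per library and was called in no comparison. The other 41 are the constitutive 20S genes (Psma1 to Psma7 and Psmb1 to Psmb7), 17 genes of the 19S cap (Psmc1 to Psmc6 and 11 Psmd genes), the assembly chaperones Psmd5, Psmd9 and Psmd10, the 3 immune catalytic genes, the PA28 pair, and the activators Psme3 (PA28 gamma) and Psme4 (PA200). Psmc3ip, a recombination gene, and Psme2b share part of the spelling and are not members by the rule. The members lie on 16 chromosomes, and exons of 8 members overlap those of a counted gene on the opposite strand. These 8 are Psma4, Psmb7, Psmb9, Psmc3, Psmd1, Psmd13, Psmd3 and Psme1. The sources used here do not state whether counting used strand, so how reads from the shared bases were counted is not known. Psmb9 shares 212 bases of exon with Tap1, the peptide transporter gene.

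Levels were compared between genes only per length, with the deposited FPKM (fragments per kilobase of transcript and M fragments). At WT baseline the constitutive core was the most abundant class. Its alpha genes had a median level of 80.4 FPKM over 7 genes, from 39 for Psma5 to 120 for Psma3, and its catalytic beta genes had a median of 102 FPKM, from 74.9 for Psmb5 to 120 for Psmb6. The 19S genes were lower, with medians of 47 FPKM for the ATPases and 38.4 FPKM for the non-ATPase subunits, among which Psmd14 was the lowest at 23.6. The immune catalytic genes were lower again, with a median of 13.7 FPKM, from 9.4 for Psmb9 to 19.8 for Psmb10. The PA28 genes, at 76.8 and 80.1 FPKM, lay in the range of the constitutive core. The assembly chaperones had a median of 14.2 FPKM, and Psma8 and Psmb11 were at 0.219 and 0.000466 FPKM. KO baseline livers gave a similar order, with a median of 76.7 FPKM for the alpha genes and 19.5 FPKM for the immune catalytic genes. Over all members, the share of counts was 0.305% ± 0.0107 (SD, n = 3) in WT and 0.306% ± 0.00275 (n = 3) in KO baseline livers.

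**Figure D1:**
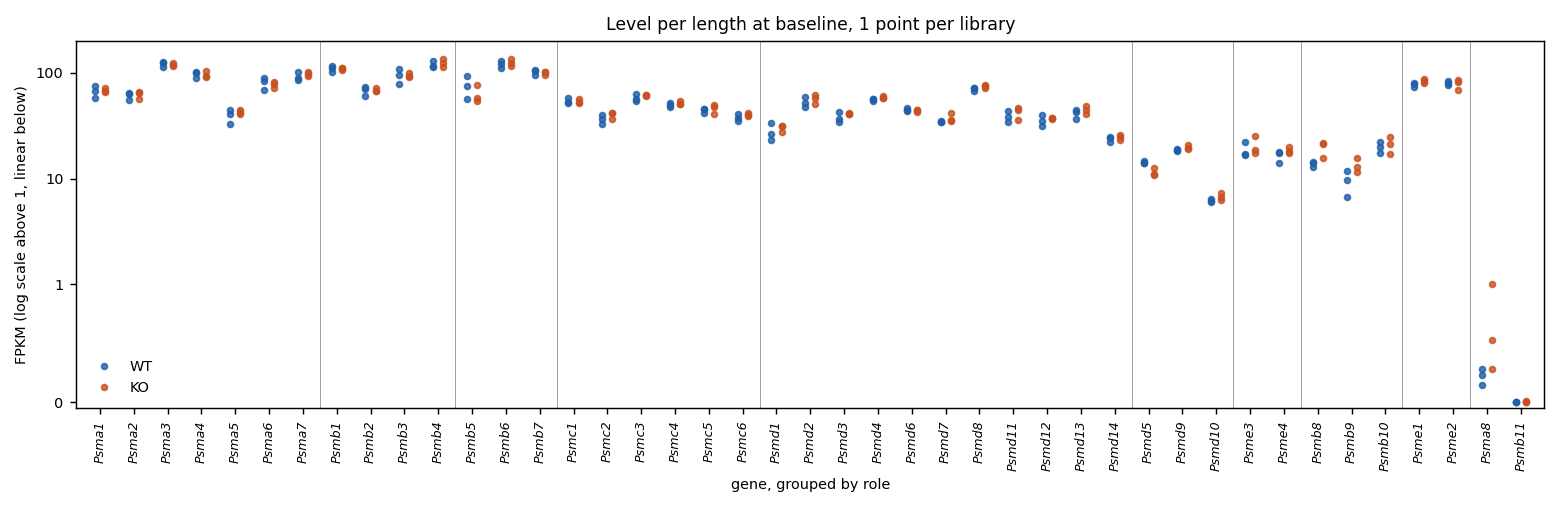
Level per length of each member at baseline in FPKM (log scale above 1, linear below), with 1 point per library, WT in blue and KO in orange, grouped by role. The immune catalytic genes Psmb8, Psmb9 and Psmb10 sit between the constitutive catalytic genes above them and the near-zero Psma8 and Psmb11.

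The sequence upstream of 5 genes is shown because the results below turn on them. Psmb5, Psmd14 and Psmc4 had the largest fold changes among members in KO at 24 and 30 h, Psmb10 was the immune gene called lower most often, and Psmb6 carries, with Psmb5, a match to the antioxidant response element core, the kind of site that NFE2L1 binds. Sequences are from RefSeq on GRCm38.p6 and are written 5′ to 3′ in the direction of the gene. They end where the first annotated exon begins, except that of Psmb6. The Psmb6 sequence ends at the RefSeq start, ahead of the annotated gene start at chr11:70525367. The printed lengths are 250 bases for Psmb6 and Psmd14, 223 for Psmb5, 241 for Psmc4 and 198 for Psmb10. Capitals mark matches to TGACNNNGC.
Psmb5, chr14:54618023-54618245, reverse strand: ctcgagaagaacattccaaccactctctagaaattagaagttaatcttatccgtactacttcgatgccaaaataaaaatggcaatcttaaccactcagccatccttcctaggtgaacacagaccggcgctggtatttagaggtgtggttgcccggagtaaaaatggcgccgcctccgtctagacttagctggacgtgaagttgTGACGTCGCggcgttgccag
Psmb6, chr11:70525107-70525356, forward strand: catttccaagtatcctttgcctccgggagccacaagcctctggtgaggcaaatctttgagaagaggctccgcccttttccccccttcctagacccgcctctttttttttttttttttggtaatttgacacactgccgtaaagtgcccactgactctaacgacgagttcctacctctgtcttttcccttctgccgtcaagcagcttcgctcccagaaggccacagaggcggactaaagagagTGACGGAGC
Psmd14, chr2:61711444-61711693, forward strand: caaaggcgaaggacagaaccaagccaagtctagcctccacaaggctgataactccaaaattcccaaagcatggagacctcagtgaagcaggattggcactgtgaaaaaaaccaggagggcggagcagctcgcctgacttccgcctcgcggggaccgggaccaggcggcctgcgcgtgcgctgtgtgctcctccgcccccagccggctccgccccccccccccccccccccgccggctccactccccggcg
Psmc4, chr7:28050102-28050342, reverse strand: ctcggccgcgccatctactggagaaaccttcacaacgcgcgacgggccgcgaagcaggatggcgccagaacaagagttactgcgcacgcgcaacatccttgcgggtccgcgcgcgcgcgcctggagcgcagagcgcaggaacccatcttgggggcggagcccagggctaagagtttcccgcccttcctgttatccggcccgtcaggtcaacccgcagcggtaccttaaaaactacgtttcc
Psmb10, chr8:105938445-105938642, reverse strand: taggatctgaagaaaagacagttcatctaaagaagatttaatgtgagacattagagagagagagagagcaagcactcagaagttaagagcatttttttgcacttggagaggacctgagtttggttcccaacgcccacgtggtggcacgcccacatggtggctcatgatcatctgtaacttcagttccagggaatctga

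The table of promoters held 36 of the 43 genes in 39 windows, and each was searched over the whole 250 bases before its RefSeq start, also where fewer are printed above. TGACNNNGC, on either strand, was found in 5 of the 39 windows (12.8%), those of Psmb5, Psmb6, Psmc6, Psmd12 and Psmd9, against 10.2% of 32817 windows of the same length over all genes. In Psmb5 the match TGACGTCGC began 47 bases before the RefSeq start, and in Psmb6 the match TGACGGAGC began 9 bases before it. The interferon-stimulated response element core GAAANNGAAA was found for Psmb3, Psmd4 and Psmd9 (2.97% of all windows), the gamma-activated site TTCNNNGAA for Psmb8 (7.01% of all windows), and CCAAT in 35.9% of member windows against 33.8% of all. A match is a description of the letters only. In GENCODE M21 annotation of GRCm38, all 5 are protein-coding genes. Psmb5 spans chr14:54614119-54618022 and Psmb6 chr11:70525367-70527858. Psmd14 spans chr2:61711694-61800376, Psmc4 chr7:28041707-28050101 and Psmb10 chr8:105935735-105938444.

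The first comparison asked how each genotype's livers differed from their own baseline after surgery. At 24 h the 19S cap and part of the constitutive core were higher in both genotypes, while the immune catalytic genes were lower or uncalled. In WT, 15 members rose and 2 fell at an adjusted p under 0.05 (edgeR's quasi-likelihood test, Benjamini-Hochberg over all 14090 genes tested), beside 22.4% of all genes called in either direction and 10.5% called higher. The median log2 fold change over the 42 members was 0.22, and over all genes 0. In KO, 29 members rose and none fell, with a median of 0.43, beside 23.7% of all genes called and 11.5% called higher. All 15 genes that rose in WT were among the 29 in KO. Beside these calls, 4 of 5 tested cholangiocyte (bile duct cell) markers rose in WT at 24 h and 1 of 5 in KO. Their summed level was 24.9 to 48.8 CPM at WT baseline and 57.1 to 93.6 CPM at 24 h, and 31.6 to 38.7 CPM and 39.6 to 55.5 CPM in KO, with Cftr at 0 at KO baseline. Their part in the result was not tested. In bulk liver RNA, fewer cells of a type and less RNA per cell cannot be told apart.

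The 19S genes made up most of these calls. In WT at 24 h, 11 of 17 rose (median log2 fold change 0.36), and in KO 17 of 17 did (median 0.56). Psmd14, the deubiquitinase of the cap, went from 40.6, 41.8 and 38.4 CPM at WT baseline to 67.9, 57.3 and 69.6 CPM at 24 h, and from 35.8, 41.2 and 38.4 CPM to 63.1, 75.9 and 67.4 CPM in KO. Every 24 h library was above every baseline library in both genotypes. The log2 fold change was 0.69 ± 0.10 (SE; adjusted p = 6.41e-06) in WT and 0.84 ± 0.10 (adjusted p = 2.04e-07) in KO. Psmd1, a large scaffold subunit of the cap, stood at 70.2, 96.0 and 85.0 CPM at WT baseline and at 126, 116 and 135 CPM at 24 h, again with no overlap (0.58 ± 0.12, adjusted p = 0.000506). Psmc4, an ATPase of the base, was at 81.6, 79.5 and 80.4 CPM in WT and 110 CPM in each of the 3 libraries at 24 h. In KO it went from 73.7, 75.7 and 73.2 CPM to 115, 134 and 120 CPM, a log2 fold change of 0.73 ± 0.09 (adjusted p = 1.81e-07).

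Within the constitutive core, 3 of 14 genes rose in WT at 24 h and 10 of 14 in KO, and the catalytic genes among them were Psmb5 and Psmb6 in WT and all 3 in KO. Psmb5, which cleaves after hydrophobic residues, was at 41.6, 42.6 and 54.5 CPM at WT baseline and at 60.9, 72.1 and 76.5 CPM at 24 h. In KO it went from 32.8, 33.0 and 39.8 CPM to 67.0, 88.4 and 84.0 CPM. The libraries did not overlap in either genotype, and the KO change was the largest of any member at this time (log2 fold change 1.18 ± 0.18, adjusted p = 9.72e-06), against 0.59 ± 0.18 (adjusted p = 0.0159) in WT. Psmb6, the caspase-like subunit, rose in WT from 111, 93.4 and 93.1 CPM to 124, 124 and 127 CPM and in KO from 96.7, 82.4 and 87.0 CPM to 113, 152 and 139 CPM. Psmb7, the trypsin-like subunit, rose in KO (0.41 ± 0.13, adjusted p = 0.0157), from 57.5, 54.7 and 53.3 CPM to 67.9, 77.3 and 75.1 CPM, and was at 75.9, 67.0 and 76.8 CPM in WT at 24 h without a call. The alpha ring gave 1 call of 7 in WT (Psma5, median of the ring 0.13) and 5 of 7 in KO (median 0.43). The assembly chaperones gave 0 and 1 calls of 3, and Psme4, an activator of the core, rose in both genotypes.

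The count in WT at 24 h depended on single libraries. Without WT 24 h replicate 3 it was 8, and without WT baseline replicate 1 or replicate 2 it was 11, while in KO it stayed between 24 and 28 whichever library was left out. Psmb5 in WT lost its call without 3 of the 6 libraries, and Psmd14 kept its call in both genotypes in each omission.

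The immune catalytic genes stood lower at 24 h. Psmb10, which takes the place of PSMB7, was at 34.2, 24.6 and 30.5 CPM at WT baseline and at 17.8, 23.1 and 18.3 CPM at 24 h, with no overlap (log2 fold change fell by 0.59 ± 0.19, adjusted p = 0.0195). Psmb9, which takes the place of PSMB6, was at 17.3, 14 and 10.6 CPM and at 10.8, 7.02 and 9.76 CPM, with 1 overlapping library (a log2 fall of 0.60 ± 0.22, adjusted p = 0.0469). Psmb8 was at 11.2, 10.6 and 10.8 CPM and at 7.73, 7.57 and 9.55 CPM, without a call (log2 fold change -0.39 ± 0.22, adjusted p = 0.226). In KO none of the 3 was called, with log2 fold changes of -0.31 for Psmb10, -0.45 for Psmb8 and -0.38 for Psmb9, and the PA28 genes were called in neither genotype. The WT calls were near the threshold. Psmb10 lost its call without WT 24 h replicate 1 or 3 or WT baseline replicate 1 and on the FPKM scale, and Psmb9 lost its call in 4 of 6 omissions.

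Set against its partner per length, each immune catalytic gene took a smaller part at 24 h. For 100 FPKM of Psmb5 there were 19.2 ± 5.53 FPKM of Psmb8 at WT baseline (SD, n = 3; range 13.8 to 24.9) and 9.15 ± 2.02 at 24 h (7.41 to 11.4). In KO the same ratio was 31.6 ± 6.91 at baseline (27.2 to 39.6), 8.01 ± 1.71 at 24 h and 6.64 ± 1.58 at 30 h (5.39 to 8.42). The ranges at baseline and 24 h did not overlap in either genotype. Psmb10 per 100 of Psmb7 went from 19.5 ± 2.4 to 11.4 ± 2.04 in WT and from 21 ± 3.25 to 12.1 ± 1.5 in KO, and Psmb9 per 100 of Psmb6 from 7.74 ± 1.49 to 4.17 ± 0.62 and from 10.7 ± 0.85 to 5.93 ± 0.95. These ratios were not tested, and they combine the rise of the partner with the level of the immune gene. Summed over the genes of a kind, the constitutive catalytic level was 297 ± 5.12 FPKM at WT baseline and 427 ± 28.7 at 24 h, and the immune catalytic level was 42.9 ± 4.41 and 33.3 ± 0.129.

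**Figure D2:**
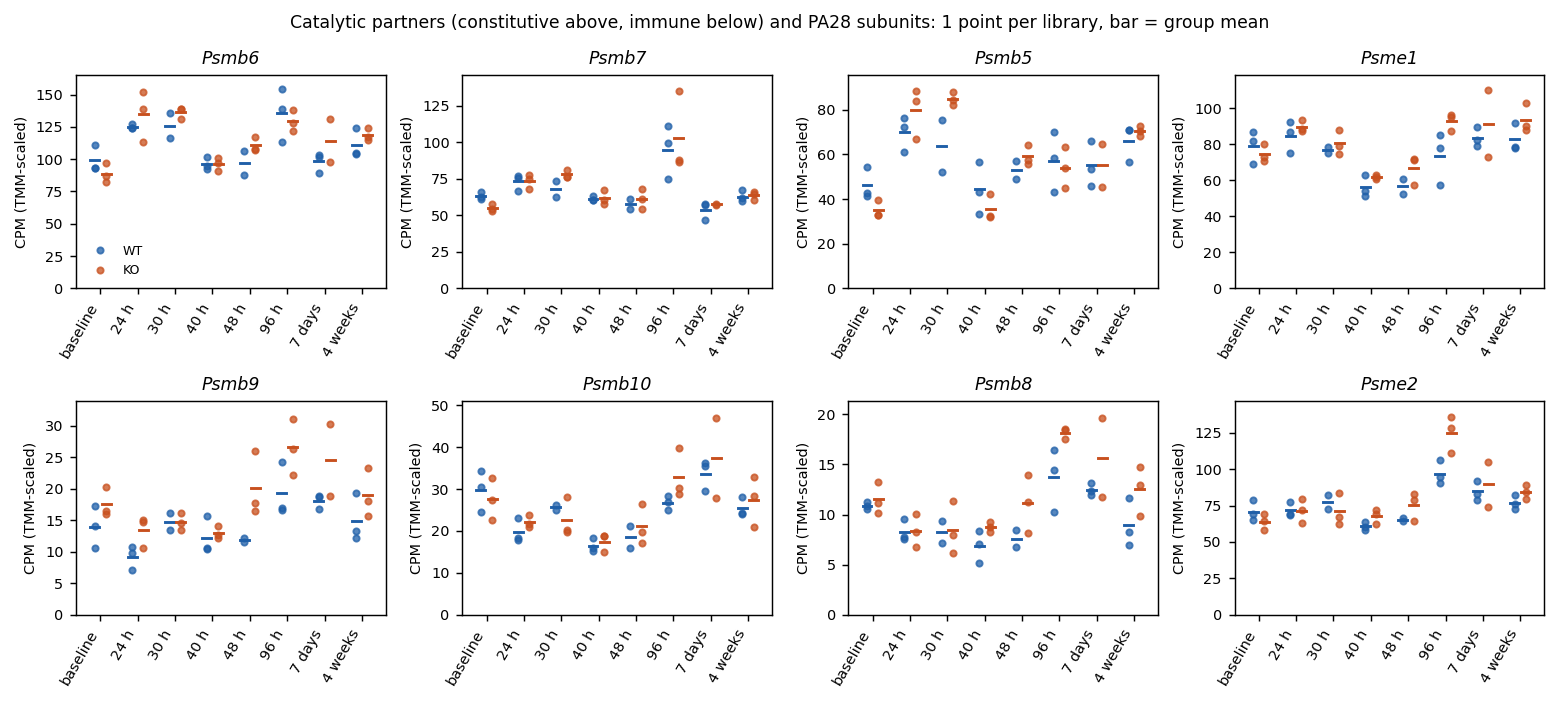
CPM with TMM scaling of the constitutive catalytic genes Psmb6, Psmb7 and Psmb5 (upper row), the immune genes that take their places, Psmb9, Psmb10 and Psmb8 (lower row), and the PA28 genes Psme1 and Psme2, by condition, with 1 point per library and a bar at the group mean, WT in blue and KO in orange. The KO libraries of Psmb5 at 24 and 30 h lie above those at baseline, the libraries of Psmb10 at 40 h lie below baseline in both genotypes, and the KO libraries of Psme2 at 96 h, at 136, 128 and 111 CPM, lie above all other groups.

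Lymphocytes and NK cells carry immunoproteasomes, and of 16 of their markers 8 could be tested. In WT at 24 h 1 of the 8 fell, and the other 7 were not called. Their summed level was 3.65 to 4.74 CPM at WT baseline and 1.9 to 3.05 CPM at 24 h, with Cd8b1 at 0 in all baseline libraries. In KO it was 5.25 to 8.08 CPM at baseline and 3.5 to 8.76 CPM at 24 h, a range that spans that of baseline. Among 10 genes of class I antigen presentation, B2m and H2-K1, the light chain and a heavy chain of the complex, fell in WT at 24 h by 0.64 each on the log2 scale, and the chaperones Calr and Pdia3 rose. The part of these cells in the immune gene values was not tested.

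At 30 h the rise persisted in KO. There, 29 members rose and none fell (median log2 fold change 0.39), beside 33.1% of all genes called and 17% called higher. The 19S cap gave 15 of 17 and the constitutive core 11 of 14, with all 3 catalytic genes. In WT, with 2 libraries, Psmc4 and Psmd14 rose and no other member passed (median 0.11, 17.7% of all genes called). The 2 time points of a genotype share its baseline libraries, so they are not independent.

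Psmb5 in KO at 30 h was at 84.3, 82.1 and 88.0 CPM, all above the baseline libraries (log2 fold change 1.27 ± 0.18, adjusted p = 1.63e-06), and in WT at 75.4 and 52.3 CPM, of which the lower is inside the baseline range. Psmc4 was at 141, 140 and 136 CPM in KO (0.90 ± 0.09, adjusted p = 9.58e-10) and at 115 and 103 CPM in WT (0.44 ± 0.10, adjusted p = 0.00173). Psmd14 was at 72.9, 67.5 and 61.3 CPM in KO and at 57.1 and 49.5 CPM in WT, above the baseline libraries in both. The WT count rested on few libraries. It was 0 without WT 30 h replicate 2, 4 without WT 30 h replicate 3, 7 without the libraries of 96 h, and 6 to 11 with limma on FPKM. The immune genes were called in neither genotype at 30 h.

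At 40 h, when Mki67 (a proliferation marker) reached 227 CPM in WT, most members were near baseline. In WT, 4 rose and 4 fell (median log2 fold change -0.04), beside 36.5% of all genes called, and in KO 5 rose and 1 fell (median 0.03), beside 35.6%. The genes that rose in WT were 19S genes, Psmd14, Psmc4, Psmd13 and Psmd1, and those that fell were Psmb10, Psmb8, Psme1 and the chaperone gene Psmd10. No gene of the constitutive core was called in either genotype. Without TMM factors, which moved the median of all genes in WT to 0.13, the WT split was 10 higher and 1 lower, and with limma on FPKM 11 or 12 higher and 1 or 2 lower. Without WT baseline replicate 1 the count was 4, and without WT 40 h replicate 1 or replicate 2 it was 5.

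Psmd14 was at 52.0, 57.4 and 54.2 CPM in WT and at 53.3, 52.7 and 56.0 CPM in KO at 40 h, above the baseline libraries of both, while Psmb5 was at 33.5, 43.2 and 56.6 CPM and at 32.4, 31.9 and 42.2 CPM, within or around baseline. Psmd13, a subunit of the lid, was at 93.1, 91.5 and 85.8 CPM in WT against 71.3, 67.6 and 74.6 CPM at baseline (log2 fold change 0.34 ± 0.12, adjusted p = 0.0283), and at 84.7, 91.2 and 91.9 CPM in KO against 60.6, 65.3 and 62.9 CPM (0.50 ± 0.12, adjusted p = 0.00151). Psmc4 was at 105, 110 and 106 CPM in WT and at 99.0, 96.3 and 111 CPM in KO. Neither gene's libraries overlapped with baseline in either genotype. In KO, Psmd7 and the assembly chaperone gene Psmd9 rose as well.

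Psmb10 gave its lowest group means at 40 h. It was at 15.3, 18.2 and 15.9 CPM in WT and at 18.8, 18.7 and 14.9 CPM in KO, below every baseline library of the same genotype. It fell by 0.85 ± 0.19 on the log2 scale in WT (adjusted p = 0.000515) and by 0.65 ± 0.19 in KO (adjusted p = 0.0062). Psmb8 in WT was at 5.12, 8.34 and 7.01 CPM (a log2 fall of 0.67 ± 0.23, adjusted p = 0.0197), and Psme1, a PA28 subunit, was at 51.5, 62.9 and 53.8 CPM against 86.7, 68.8 and 81.9 CPM at baseline (a log2 fall of 0.50 ± 0.13, adjusted p = 0.00269). The WT calls of Psmb10 and Psme1 held in each omission of a library, that of Psmb8 was lost without WT baseline replicate 1 or WT 40 h replicate 1, and that of Psmb10 in KO without KO baseline replicate 1. Without TMM factors, Psmb8 and Psme1 in WT were at log2 fold changes of -0.53 and -0.35 and were no longer called. Among 19 interferon-gamma response genes, 8 fell and 1 rose in WT at 40 h and 8 fell and none rose in KO. Of all genes, 36.5% in WT and 35.6% in KO were called in either direction at this time. The summed lymphocyte and NK markers were at 1.97 to 2.69 CPM in WT and 2.44 to 3.98 CPM in KO, both below their baseline ranges, with Cd8b1 at 0 in WT, and their part in the result was not tested.

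At 48 h WT gave 2 members higher, Psmd14 and the lid subunit gene Psmd7, and 2 lower, Psmb10 and Psme1, beside 31% of all genes called. In KO 9 members rose and none fell, beside 36%, and they included Psmb5 at 64.4, 57.3 and 55.6 CPM (log2 fold change 0.75 ± 0.18, adjusted p = 0.00143), Psmb6, 3 ATPase genes and 4 non-ATPase genes. Psmd14 was at 63.2, 60.9 and 54.2 CPM in KO (0.63 ± 0.10, adjusted p = 8.96e-06), and at 58.9 and 48.5 CPM in WT (0.42 ± 0.11, adjusted p = 0.0052). Both groups lay above their baseline libraries, as did Psmd7 in WT, at 86.2 and 75 CPM, and Psmc4 in KO, at 117, 99.4 and 94.7 CPM. Psmb10 in WT, at 15.9 and 21.2 CPM, fell by 0.68 ± 0.21 on the log2 scale (adjusted p = 0.0129), and Psme1, at 60.7 and 52.4 CPM, by 0.48 ± 0.15 (adjusted p = 0.0106). The WT split was 6 higher and none lower without TMM factors (median of all genes 0.18). It was 8 higher and none lower with limma on FPKM with a filter, and limma without a filter called 5 members. The WT count was 2 without WT baseline replicate 1 and 1 without WT 48 h replicate 2, and the KO count was 4 without KO 48 h replicate 1 and 20 without TMM factors.

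**Figure D3:**
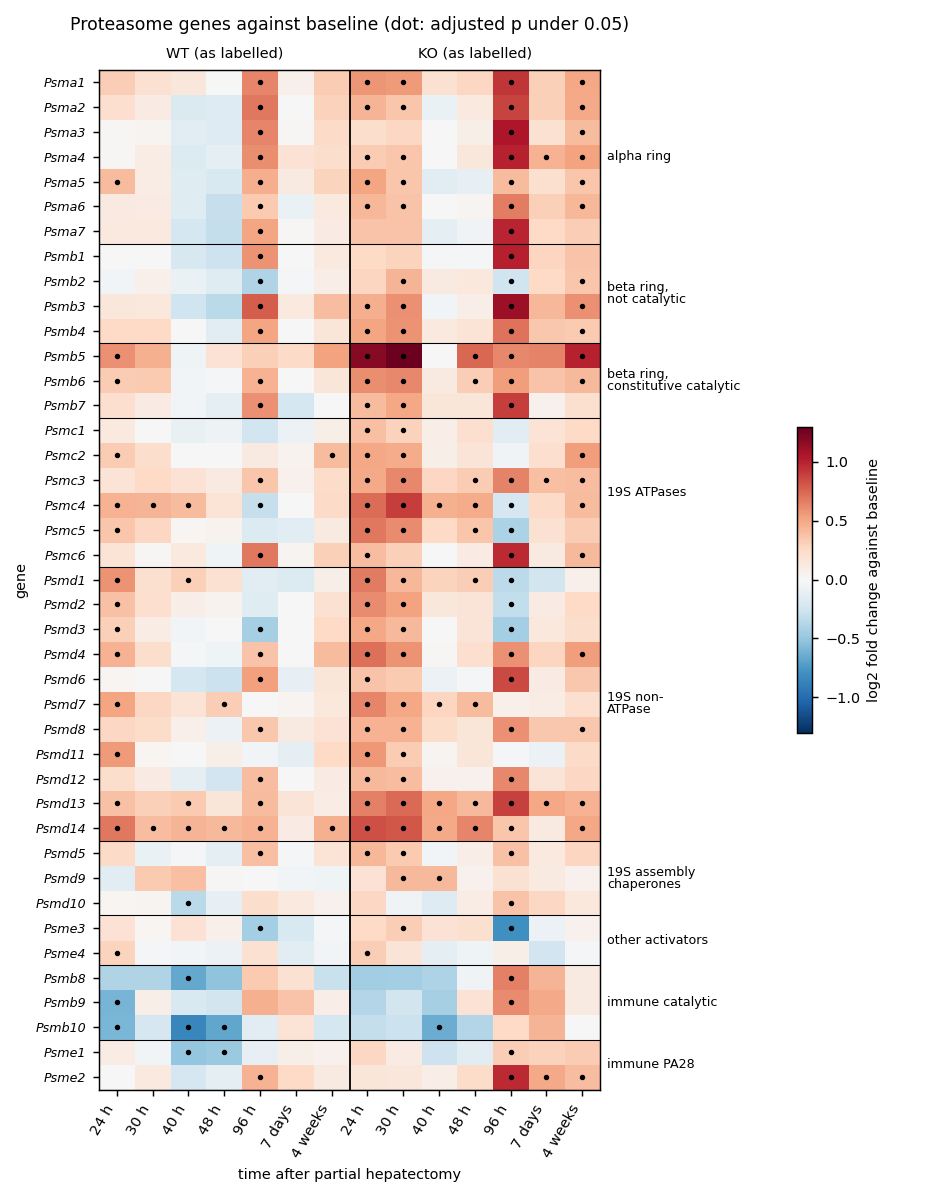
Log2 fold change against baseline of the same genotype for 41 members (rows, grouped by role) at each time after surgery (columns, WT left and KO right, 96 h as labelled); a dot marks an adjusted p under 0.05 in edgeR's quasi-likelihood test. In KO, 29 rows carry a dot at 24 h and 29 at 30 h, while the columns of 96 h show high values for the 20S genes and low ones for Psme3.

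At 96 h, by label, the pattern differed from that of 24 h: the 20S core was high and several 19S genes and Psme3 were low. In the libraries labelled WT, 22 members rose and 4 fell (median log2 fold change 0.36), beside 27.4% of all genes called, 12.8% higher and 14.6% lower. In those labelled KO, 27 rose and 7 fell (median 0.56), beside 44% of all genes, 21.9% higher and 22.1% lower. All 22 genes that rose under the WT label were among the 27, and the 4 that fell were among the 7. The constitutive core gave 12 higher and 1 lower of 14 under the WT label and 13 and 1 under the KO label, whereas the 19S genes gave 8 higher and 2 lower, and 8 higher and 5 lower, of 17. Without TMM factors, which moved the KO median of all genes to -0.39, the KO split was 14 higher and 12 lower, and with limma on FPKM it was 19 higher and 8 or 9 lower.

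Among the core genes, Psmb3, a beta subunit without catalytic activity, was at 87.5, 68.2 and 62.5 CPM at WT baseline and at 145, 129 and 104 CPM at 96 h under the WT label (log2 fold change 0.79 ± 0.16, adjusted p = 0.00054). In KO it went from 63.2, 61.4 and 67.0 CPM to 200, 111 and 104 CPM (1.11 ± 0.16, adjusted p = 1.38e-06). Neither genotype's libraries overlapped with baseline, and KO 96 h replicate 1 was the highest by a wide gap, as it was for Psma3 (302, 206 and 176 CPM) and Psmb1 (320, 194 and 171 CPM), the other members of the 3 largest KO changes. Psma2, at 112, 101 and 86.2 CPM, and the ATPase gene Psmc6, at 121, 125 and 101 CPM, gave the other large WT changes, each 0.69 on the log2 scale.

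Psme3, which encodes a nuclear activator of the core for the breakdown of proteins without ubiquitin, gave the largest fall of a member at 96 h. It was at 55.6, 50.1 and 67.5 CPM at WT baseline and at 42.5, 42.2 and 42.9 CPM under the WT label, and at 49.3, 64.5 and 48.8 CPM and 27.4, 28.2 and 37.9 CPM in KO. The groups did not overlap, and it fell by 0.44 ± 0.11 (adjusted p = 0.00258) and by 0.80 ± 0.11 (adjusted p = 4.27e-07) on the log2 scale. Psmd3, a lid subunit, fell by 0.43 ± 0.09 and 0.44 ± 0.09, from 89.7, 100 and 91.1 CPM to 70.6, 61.6 and 75.9 CPM under the WT label. Psmc4, which had risen at the earlier times, was at 67.1, 59.0 and 69.7 CPM under the WT label and 66.4, 55.1 and 69.1 CPM under the KO label, below its baseline in both. Psmb2, a beta subunit without catalytic activity, was at 48.1, 40.9 and 52.2 CPM under the WT label, below its baseline of 69.3, 60.2 and 56.0 CPM, and fell in both. The ATPase gene Psmc5 was at 43, 39.3 and 53.8 CPM under the KO label against 53.8, 65.3 and 62.3 CPM (a log2 fall of 0.41 ± 0.12, adjusted p = 0.00379), and Psmd1 and Psmd2 fell there too.

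Immune genes were high under the KO label at 96 h. There, Psmb8 was at 18.4, 18.5 and 17.5 CPM (log2 fold change 0.66 ± 0.22, adjusted p = 0.0145), Psmb9 at 22.2, 31.1 and 26.3 CPM (0.61 ± 0.21, adjusted p = 0.0204) and Psme2 at 136, 128 and 111 CPM (0.97 ± 0.12, adjusted p = 1.11e-07), each above all KO baseline libraries. Psme1 also rose, by 0.32 ± 0.13 (adjusted p = 0.0439), and Psmb10, at 28.9, 39.7 and 30.3 CPM, was not called. Under the WT label Psme2 alone of the 5 rose, to 106, 90.3 and 94.4 CPM. The Psme2 calls against baseline held under every setting and omission that was run, but without TMM factors Psme1 in KO turned to -0.07 and on the FPKM scale Psmb8 was at -0.01, with no call for either. Beside these genes, 11 of 19 interferon-gamma response genes rose and none fell in the KO libraries and none passed in the WT ones, and 7 of 9 tested neutrophil and monocyte markers and 7 of 11 Kupffer cell markers rose in KO. The summed Kupffer cell markers were at 483 to 862 CPM under the KO label against 228 to 322 CPM at baseline, and at 295 to 412 CPM under the WT label against 134 to 208 CPM. The summed neutrophil and monocyte markers were at 98.1 to 160 CPM against 35.6 to 45 CPM, and at 62.9 to 71.6 CPM against 17.9 to 31.1 CPM, with S100a8, Retnlg and Mmp8 at 0 at WT baseline and Retnlg at KO baseline. Their part in the result was not tested.

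Transcript length and base composition moved with fold change over all genes at 96 h, and length did so at some other times. The 3511 genes with the shortest transcripts, up to 2038 bases, had a median log2 fold change of 0.37 under the KO label and 0.19 under the WT label, and the 3509 with the longest, from 4678 bases, had -0.31 and -0.15. At 24 h the same medians were 0.03 and -0.06 in KO and -0.07 and 0.04 in WT. In KO they were 0.11 and -0.14 at 30 h, 0.19 and -0.19 at 7 days and 0.17 and -0.21 at 4 weeks. In WT they were -0.01 and -0.04, 0.03 and -0.07, and 0.07 and -0.09 at these times. At 40 and 48 h in WT they were -0.12 and 0.09, and -0.11 and 0.05. By GC content, the 3514 lowest and 3507 highest genes had medians of 0.31 and -0.19 under the KO label at 96 h. Of the members, 27 had transcripts of up to 2038 bases, with a median of 0.62 under the KO label, and 12 had 2039 to 3229 bases, with a median of 0.39. Psme3, at 2664 bases, is 1 of the latter. Albumin transcripts took 16.7% of counts under the KO label and 10% under the WT label, against 6.83% and 6.81% at baseline. The part of length, GC content and composition in the 96 h values, and of length at the other times, was not tested.

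**Figure D4:**
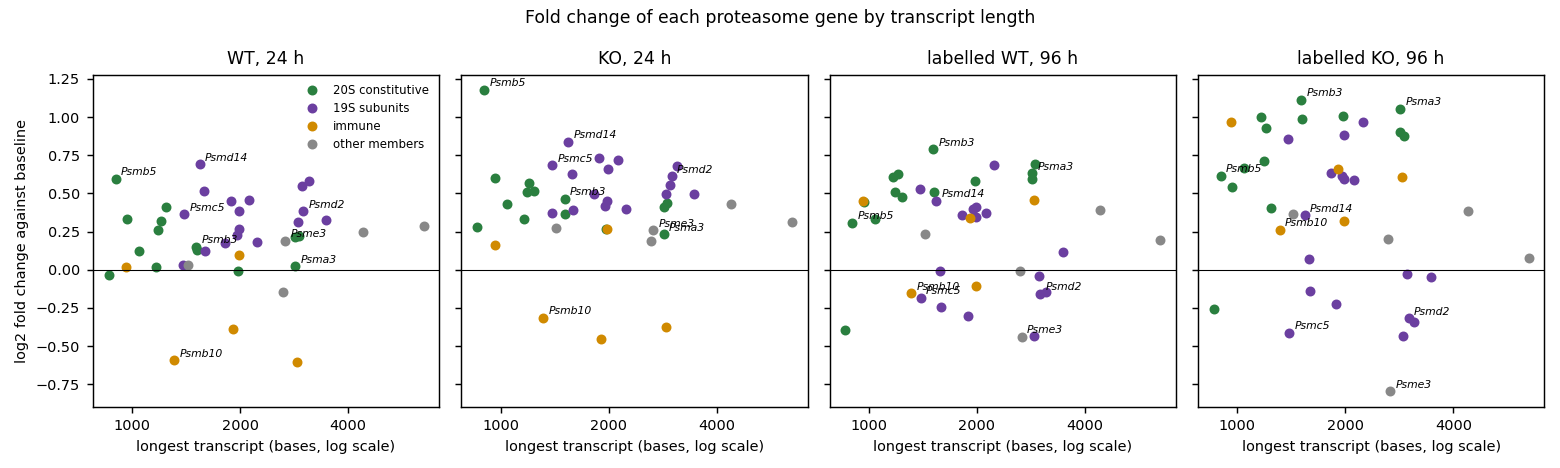
Log2 fold change against baseline of each of 41 members by the length of its longest transcript in bases (log scale), in WT and KO at 24 h and under the WT and KO labels at 96 h, with 20S constitutive genes in green, 19S genes in purple, immune genes in orange and other members in grey. At 24 h the 19S genes lie above 0 at all lengths, and at 96 h Psmb3 and Psma3 are high while Psme3, Psmc5 and Psmd2 are below 0.

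At 7 days no member was called in WT by edgeR's quasi-likelihood test (1 at an unadjusted p under 0.05; 0 with DESeq2 or limma), beside 3.56% of all genes called, and the median log2 fold change was 0.02. In KO, with 2 libraries, Psma4, Psmc3, Psmd13 and Psme2 rose (median 0.25), beside 5.56% of all genes. Psmd13 was at 82.2 and 96.1 CPM against 60.6, 65.3 and 62.9 CPM at baseline (0.50 ± 0.14, adjusted p = 0.0269), Psme2 at 74.2 and 105 CPM against 69.2, 58.2 and 64.4 CPM, and Psma4 at 114 and 138 CPM against 88.2, 88.2 and 99.0 CPM. All 3 groups lay above baseline, but these calls rested on single libraries. The count was 0 without KO baseline replicate 2 or 3 or KO 7 days replicate 3, 1 without KO baseline replicate 1, 10 without KO 7 days replicate 1, 7 without the 96 h libraries and 0 with limma on FPKM. In the same KO libraries, 5 of 10 stellate cell markers fell, and their summed level was 113 to 193 CPM against 239 to 388 CPM at baseline. Their part in the result was not tested.

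At 4 weeks 20 members were higher in KO and none lower, with a median log2 fold change of 0.34, beside 8.57% of all genes called and 4.29% called higher. They were 11 of the 14 constitutive core genes, 8 of the 17 19S genes and Psme2. In WT, Psmd14 and Psmc2 rose, beside 1.17% of all genes, and the median was 0.16 with 36 of 42 members at positive values. Psmb5 in KO was at 70.5, 68.4 and 72.7 CPM, each above all baseline libraries (1.00 ± 0.18, adjusted p = 0.00141), and in WT at 70.9, 56.7 and 71.1 CPM against 41.6, 42.6 and 54.5 CPM, without a call. Psmc2, an ATPase gene, was at 109 CPM in each KO library against 68.7, 77.7 and 77.3 CPM (0.54 ± 0.11, adjusted p = 0.00254), and at 107, 99.8 and 103 CPM in WT against 80.3, 81.1 and 72.2 CPM (0.41 ± 0.11, adjusted p = 0.0459). Psmb3 rose in KO to 100, 89.6 and 98.0 CPM (0.59 ± 0.16, adjusted p = 0.0224), and Psmd4, a ubiquitin receptor of the cap, to 116, 107 and 109 CPM from 75.1, 79.0 and 74.5 CPM (0.54 ± 0.13, adjusted p = 0.00863). The immune catalytic genes were not called, and in KO their median was 0.12.

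The KO count at 4 weeks depended on the settings. It was 6 without TMM factors, with the median of all genes at -0.18, and 2 with limma on FPKM. Other settings gave more, with 24 for DESeq2, 25 without the 96 h libraries and 28 with the compared groups alone. It was 6 without KO 4 weeks replicate 3, 9 without KO 4 weeks replicate 1, 7 without KO baseline replicate 2 and 9 without KO baseline replicate 3. The Psmb5 call in KO held in each of these. The 2 WT calls were lost without TMM factors, and the WT count was 1 without WT baseline replicate 1 or 2 and 0 without WT baseline replicate 3 or any 1 of the 4 weeks libraries. Beside the member values, 6 of 10 endothelial markers fell in KO at 4 weeks, with a summed level of 121 to 136 CPM against 226 to 239 CPM at baseline, and their part in the result was not tested.

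Over the 14 contrasts of a time with baseline, which share baseline libraries within a genotype, Psmd14 was called higher in 12, Psmd13 in 10, Psmc4 in 8 (and lower in 2), Psmb6 and Psmc3 in 7 and Psmb5 in 6. Leaving the 2 contrasts of 96 h aside, Psmd14 was called higher in 10 of 12. Psmb10 was called lower in 4, of which 3 were in WT, and higher in none.

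The second comparison set KO against WT at each condition. At the 7 conditions other than 96 h, no member was called by edgeR's quasi-likelihood test, beside 0.0852%, 0.0426%, 0.937%, 0.142%, 0.135%, 0.135% and 0.22% of all genes called at baseline, 24 h, 30 h, 40 h, 48 h, 7 days and 4 weeks. At an unadjusted p under 0.05 the counts of members were 3, 1, 5, 0, 2, 0 and 1 of 42. The share of all genes at this threshold is not given for these 7 conditions, so no excess of members is read from them. At baseline 39 of 42 log2 differences were negative, with a median of -0.12, and at 24 h and 30 h 40 and 37 were positive, with medians of 0.10 and 0.18. The most negative at baseline was that of Psmb5 (-0.39 ± 0.18, adjusted p = 0.678). Without TMM factors the median of all genes was 0.13 at baseline, 0.04 at 24 h and 0.13 at 30 h. With them it was 0, 0 and 0.01. The genes with the shortest transcripts, where 27 members lie, had a baseline median of -0.08 with TMM factors. The members' share of counts was 0.305% in WT and 0.306% in KO at baseline. The part of scaling and length in the baseline difference was not tested. Since the fold changes over time in KO are taken against these baseline libraries, the baseline difference enters them. The joint test of the time courses asks whether the change over time differs between genotypes. It called no member over 7 contrasts, beside 1.41% of all genes called. At an unadjusted p under 0.05 there were 3 of 42 members, beside 1933 of all 14090 genes. The smallest member p was that of Psmc5 (adjusted p = 0.203). Over the 6 contrasts without 96 h the joint test also called no member, beside 0.0426% of all genes. At an unadjusted p under 0.05 there was 1 of 42 members, Psmc4 (adjusted p = 0.746), beside 798 of all 14090 genes. DESeq2 and limma on FPKM also called none in these joint tests. The larger number of calls in KO than in WT at 24 h, 30 h and 4 weeks is thus not shown to be a difference between the genotypes.

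Psmc4 at 30 h came closest. It was at 141, 140 and 136 CPM in KO and at 115 and 103 CPM in WT, a log2 difference of 0.35 ± 0.10 (adjusted p = 0.0859). The libraries did not overlap. It passed with DESeq2 (adjusted p = 0.0282), without TMM factors, with limma on FPKM and without the libraries of 96 h, and leaving out any 1 library gave no call.

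Averaged over the 7 conditions, 1 member was called, beside 2.13% of all genes. Psmb9 was higher in KO by 0.36 ± 0.09 on the log2 scale (adjusted p = 0.0169), with differences from 0 to 0.75 that were positive in 6 of 7 conditions. At baseline it was at 20.2, 15.9 and 16.4 CPM in KO and 17.3, 14 and 10.6 CPM in WT, and at 24 h at 14.7, 15 and 10.6 CPM and 10.8, 7.02 and 9.76 CPM. The libraries overlapped at both. Psmb8 was positive in 7 of 7 conditions (mean 0.26 ± 0.09, adjusted p = 0.142), whereas Psmb10 had a mean of 0.06. With limma on all 3 FPKM scales Psmb8 was called in the mean (0.31 to 0.33, adjusted p from 0.00427 to 0.00789). Psmb4 and Psmc4 were called there too, and Psmb4 also without TMM factors. The members' means ran from -0.02 to 0.36 with a median of 0.04. The Psmb9 call was lost without KO 7 days replicate 3 (adjusted p = 0.0652), and the log2 mean stayed between 0.31 and 0.40 in all 39 omissions.

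Tap1, whose exon overlaps that of Psmb9 on the opposite strand, was called as well (0.30 ± 0.08, adjusted p = 0.0413). The part of reads from the 212 shared bases in either value was not tested. Of the 8 lymphocyte and NK markers tested, 1 was called higher in this mean, with a median of 0.59. Their summed level was 5.25 to 8.08 CPM in KO and 3.65 to 4.74 CPM in WT at baseline, and their part in the Psmb9 value was not tested. None of 19 interferon-gamma response genes was called in the mean by edgeR's quasi-likelihood test (1 at an unadjusted p under 0.05).

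**Figure D5:**
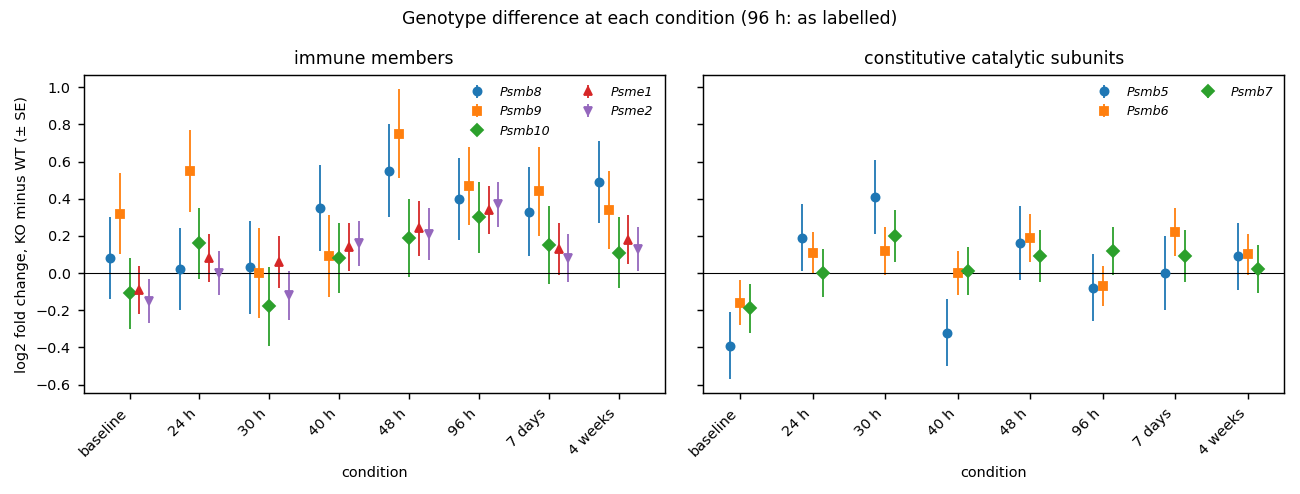
Log2 difference of KO minus WT (points, with bars of ± 1 SE) at each condition for the 5 immune members (left) and the 3 constitutive catalytic genes (right), 96 h as labelled. Psmb8 and Psmb9 lie at or above 0 at every condition, while Psmb5 goes from -0.39 at baseline to 0.41 at 30 h and is called at none.

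At 96 h the libraries labelled KO and WT, of which the latter carry Bglap3 at the KO level, differed in 14.3% of all genes and in 3 members. Psme2 was higher under the KO label by 0.37 ± 0.12 (adjusted p = 0.0356), Psmc5 lower (log2 difference -0.38 ± 0.12, adjusted p = 0.0251, with overlapping libraries) and Psme3 lower (-0.45 ± 0.11, adjusted p = 0.00535). The Psme3 libraries did not overlap, at 27.4, 28.2 and 37.9 CPM against 42.5, 42.2 and 42.9 CPM. The count was 1 without KO 96 h replicate 1, 10 without KO 96 h replicate 3, and 0 when only these 2 groups were fitted. Without TMM factors, with the median of all genes at -0.18, it was 7, all lower under the KO label. In the same contrast 9 of 19 interferon-gamma response genes were higher and none lower.

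Other genes of the pathway were taken from 3 lists, of 8, 13 and 14 tested genes. Of all genes, 22.4% were called in WT and 23.7% in KO at 24 h, and 33.1% in KO at 30 h. At 40 h these shares were 36.5% in WT and 35.6% in KO. At 96 h they were 27.4% under the WT label and 44% under the KO label. Whether the lists exceed these shares was not tested. Nfe2l1, the transcription factor named above, rose at 24 h in WT, from 116 ± 9.43 to 159 ± 17.2 CPM (n = 3 each; log2 fold change 0.45 ± 0.14, adjusted p = 0.0161), and in KO, from 111 ± 4.76 to 161 ± 4.48 CPM (0.54 ± 0.14, adjusted p = 0.00383), with Vcp, the unfoldase upstream of the proteasome, rising in both. The other 6 genes of that list of 8 did not pass at 24 h. Among 13 tested proteasome genes with other names, none rose and 2 fell in WT at 24 h (the core chaperone genes Psmg1 and Psmg2), and 2 rose in KO, Pomp, which helps the beta ring form, by 0.42 and the ubiquitin receptor gene Adrm1 by 0.34. At 30 h 5 rose in KO, with the cap deubiquitinase gene Uchl5 at 0.68. At 40 h Uchl5 rose by 0.80 in WT and by 0.83 in KO. Among 14 genes of ubiquitin supply and shuttling, 3 rose and 1 fell in WT at 24 h and 5 rose and 1 fell in KO, with Ubb, which encodes ubiquitin, at 0.72 and 0.74 on the log2 scale. At 96 h 4 rose and 5 fell under the WT label and 3 rose and 8 fell under the KO label.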

How the data were processed

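Poly(A) RNA of 45 mouse liver libraries was sequenced as 100 bp paired reads, and each sample's title gave its group. The main values are whole-number counts per gene as deposited by the authors, not normalized. The FPKM values (46472 entries, 66 of them repeated IDs) are a second table deposited by the authors, used for levels per length and as an alternative. Tools, per the submitters' processing notes, included FastQC 0.11.5, Trimmomatic, TopHat2 2.1.0, Cufflinks 2.2.1, HTSeq and DESeq2, with build mm10, and their parameters are not stated in the sources used here. Symbols came from Ensembl IDs (103 without a symbol).

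In R 4.3.3, edgeR 4.0.16 (filterByExpr, TMM, robust quasi-likelihood test, 16 group means, 29 residual degrees of freedom) tested 14090 genes, which held at least 99.944% of each library's counts, with Benjamini-Hochberg adjustment over all of them and calls at an adjusted p under 0.05. SE was computed from the log2 fold change and its F statistic. The script was tested on simulated data. Alternatives were DESeq2 1.42.0, no TMM factors, no filter, limma 3.58.1 on log2(FPKM + 1) or log2(FPKM + 0.1) with and without a filter (at least 1 FPKM in 2 libraries), a replicate block, a block of baseline and 40 h libraries (added after seeing the data), no 96 h libraries, the compared groups alone, and each library left out. Fold changes on the FPKM scale understate those of low genes. Libraries of a group differed by more than counting noise in every pair.

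Values are given per library for the immune genes and their partners and for up to 3 called members with the largest change in each direction per comparison; from other lists, up to 4 called genes with the largest change. Members and lists were chosen with earlier results of these data known. Hepatocyte markers are given with the other observations.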

Additional observations from a re-analysis of the deposited data

How the results depend on the processing

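Over the 72 gene values named, 887 of 1088 recomputed values kept their direction and side of the threshold. Groups of 2 or 3 libraries, surgery series without stated animals, the unknown strand setting and the labels at 96 h limit every comparison. Clock genes that differ among baseline libraries and between times limit the comparisons over time, and low levels of Psmb8 and Psmb9 limit theirs. With 1 library left out of a group of 2, the lone library was assumed to vary like the other groups. The cause of each change below was not tested, except that leaving out libraries leaves fewer samples.

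Without TMM factors the members called were 0 in WT at 4 weeks, 20 in KO at 48 h, 1 in KO at 7 days, 6 in KO at 4 weeks, 7 between the labels at 96 h, 2 in the mean over conditions and 1 over the 7 conditions of KO against WT. Psme1 in KO at 96 h turned to a log2 fold change of -0.07. With limma on log2(FPKM + 1), on log2(FPKM + 0.1) and on log2(FPKM + 1) without a filter the counts were 11, 11 and 6 in WT at 30 h, 1 each in WT at 4 weeks, 26, 26 and 22 in KO at 48 h, 0 each in KO at 7 days, 2 each in KO at 4 weeks, 4 each in the mean over conditions and 1 each over the 7 conditions. With the first 2 of these they were 13 and 14 in WT at 40 h and 8 and 8 in WT at 48 h, and between the labels at 96 h they were 1 with log2(FPKM + 1) and 0 without a filter. Psmb8 in KO at 96 h turned to -0.01 on all 3 FPKM scales. Without a filter on low counts the counts were 1 in WT at 4 weeks and 2 in KO at 7 days, and with DESeq2 1 over the 7 conditions. Without the 96 h libraries they were 7 in WT at 30 h, 8 in WT at 48 h (3 higher and 5 lower), 4 in WT at 4 weeks, 7 in KO at 7 days and 1 over the 7 conditions. With the compared groups alone they were 1 in WT at 30 h, 2 in WT at 48 h, 15 in WT at 96 h, 0 in WT at 4 weeks, 0 in KO at 7 days and 0 between the labels at 96 h. That fit could not be made for the joint tests or the mean over conditions, nor could the fit without 96 h for results at 96 h.

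With the replicate block the counts were 1 in WT at 4 weeks and 2 in KO at 7 days, and other counts stayed within 1.5 times. Whether the replicate numbers pair the samples cannot be decided from 2 or 3 libraries per group. Of 21 pairs of same-numbered samples, 8 had a correlation of deviations above 0.1 (range -0.29 to 0.29), and in 0 conditions did all 3. At 24 h, 48 h and 7 days each sample correlated best with its own number, at 30 and 40 h none did, and the other conditions were mixed. Between baseline and 40 h of a genotype, 2 of 3 same-numbered pairs in WT were above 0.1 (0.16, 0.09 and 0.11, and each library correlated best with its own number, a hint from the data only) and 1 of 3 in KO (-0.01, -0.06 and 0.15). A replicate block of these libraries, added after seeing the data, called 8 members in WT at 40 h, the same 8 genes, and 5 in KO.

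With each library left out in turn, the counts ranged in WT from 8 to 16 at 24 h, 0 to 4 at 30 h, 4 to 7 at 40 h, 1 to 5 at 48 h, 18 to 28 at 96 h, 0 to 0 at 7 days and 0 to 1 at 4 weeks. In KO they ranged from 24 to 28 at 24 h, 23 to 28 at 30 h, 4 to 7 at 40 h, 4 to 11 at 48 h, 26 to 33 at 96 h, 0 to 10 at 7 days and 6 to 15 at 4 weeks. For KO against WT they were 1 to 10 between the labels at 96 h and 0 to 1 in the mean, and 0 throughout in both joint tests and over the 7 conditions.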

Other observations

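Hepatocyte markers gave 2 higher and 2 lower of 9 in WT at 24 h and 1 higher and 2 lower in KO. Proliferation genes gave 4 higher and 1 lower of 12 in each genotype at 24 h, and 11 of 12 rose in WT and 12 of 12 in KO at 30 h.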
